A study of Mus musculus with 12 samples.

Results

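Chemokines are small secreted proteins that set the direction in which leukocytes move, and their receptors are G-protein-coupled receptors of the cell surface. All 62 genes of the count table that encode them, 39 ligands and 23 receptors out of 39666 genes in all, were examined in eosinophils from mouse airways, sorted as positive or negative for surface TREM-1. The genes were taken by symbol: every Ccl, Cxcl, Ccr and Cxcr symbol with a number, and Cx3cl1, Cx3cr1, Xcl1, Xcr1, Ccrl2 and Ackr1 to Ackr4. This rule was set with earlier results of these data known. TREM-1 is an activating receptor of myeloid cells encoded by Trem1. Eosinophils were sorted from pooled lung lavage of wild-type C57BL/6 mice, aged 8 to 12 weeks, in which allergic airway inflammation had been induced. The animals received 20 µg ovalbumin with 4 mg alum on days 0 and 7, then inhaled an aerosol of 1% ovalbumin for 40 minutes on each of days 16 to 18, and cells were taken on day 19. Each of 6 lavages gave a TREM-1+ and a TREM-1- sample, and both had this same treatment. The gate for eosinophils kept CD45+ cells of high side scatter that were CD11b+ and Siglec-F+, and of at most intermediate CD11c and Ly6G. How many mice went into a pool is not stated in the sources used here, and p-values here describe no more than the spread over these 6 lavages, which may be technical. No mice without allergen challenge were among the samples used.

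CC chemokines, CXC chemokines, CX3CL1 and XCL1 are named for the spacing of the cysteines near their N terminus. Most signal through receptors coupled to inhibitory G proteins, which polarize the cell and drive it up the gradient. The atypical receptors bind chemokines without such signalling and take them up or present them. Eosinophils are known for CCR3, the receptor of the eotaxins CCL11 and CCL24, and in mice also for CCR1 and for high expression of Ccl6.

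Total counts were 8626701 to 19274912 in TREM-1+ libraries and 16513387 to 21234053 in TREM-1- libraries. Levels are given as TMM-scaled CPM (the count of a gene relative to the scaled library total), and a gene was called when its edgeR p, adjusted over all 18302 genes tested, was below 0.05. Trem1, the sorted antigen, averaged 93.1 ± 20.0 CPM in TREM-1+, against 30.7 ± 8.12 CPM in TREM-1- libraries (SD, n = 6 each) and was higher in 6 of 6 pairs. All 11 eosinophil markers passed the filter, 3 of them called higher and 5 lower, and Siglecf, the gated antigen, averaged 796 CPM in TREM-1+ libraries against 875 CPM in TREM-1- libraries. Libraries of lavages 1 and 2 were far closer to each other than any other pair of lavages, with a chi-square per gene of 6.88 in TREM-1+ and 5.26 in TREM-1-, where the next closest pairs had 20.6 and 26.8. Results of lavages 3 to 6 alone are therefore given beside those that they change.

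Of the 62 members 38 passed the filter on low counts, 19 ligands and 19 receptors. TREM-1+ eosinophils had higher Ccl24, Ccl3, Cxcr2 and Ccr2 and lower Ccl6, Ccr3, Ccr1 and Ccrl2 than TREM-1- eosinophils of the same lavage. These 8 called members, 4 higher and 4 lower, made 21.1% of those tested, where 9.82% of all tested genes were called, 3.10% higher and 6.72% lower. With library totals in place of TMM factors, 7 members were higher and 2 lower, and all genes shifted to 1880 higher and 376 lower, in place of 568 and 1229. Over the 38 members the log2 fold changes had a median of 0.21, beside 0.0043 over all genes tested. In 5 members the TREM-1+ library was higher in 6 of 6 pairs, and in 3 it was lower in 6 of 6 pairs, which held for 5.08% and 8.31% of all tested genes. Gene IDs in the deposited table are 56221 for Ccl24, 20302 for Ccl3, 12765 for Cxcr2 and 12772 for Ccr2, and 20305 for Ccl6, 12771 for Ccr3, 12768 for Ccr1 and 54199 for Ccrl2. The libraries of the fractions overlapped in all 38 members, and they did not overlap in 0.951% of all tested genes.

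**Figure D1:**
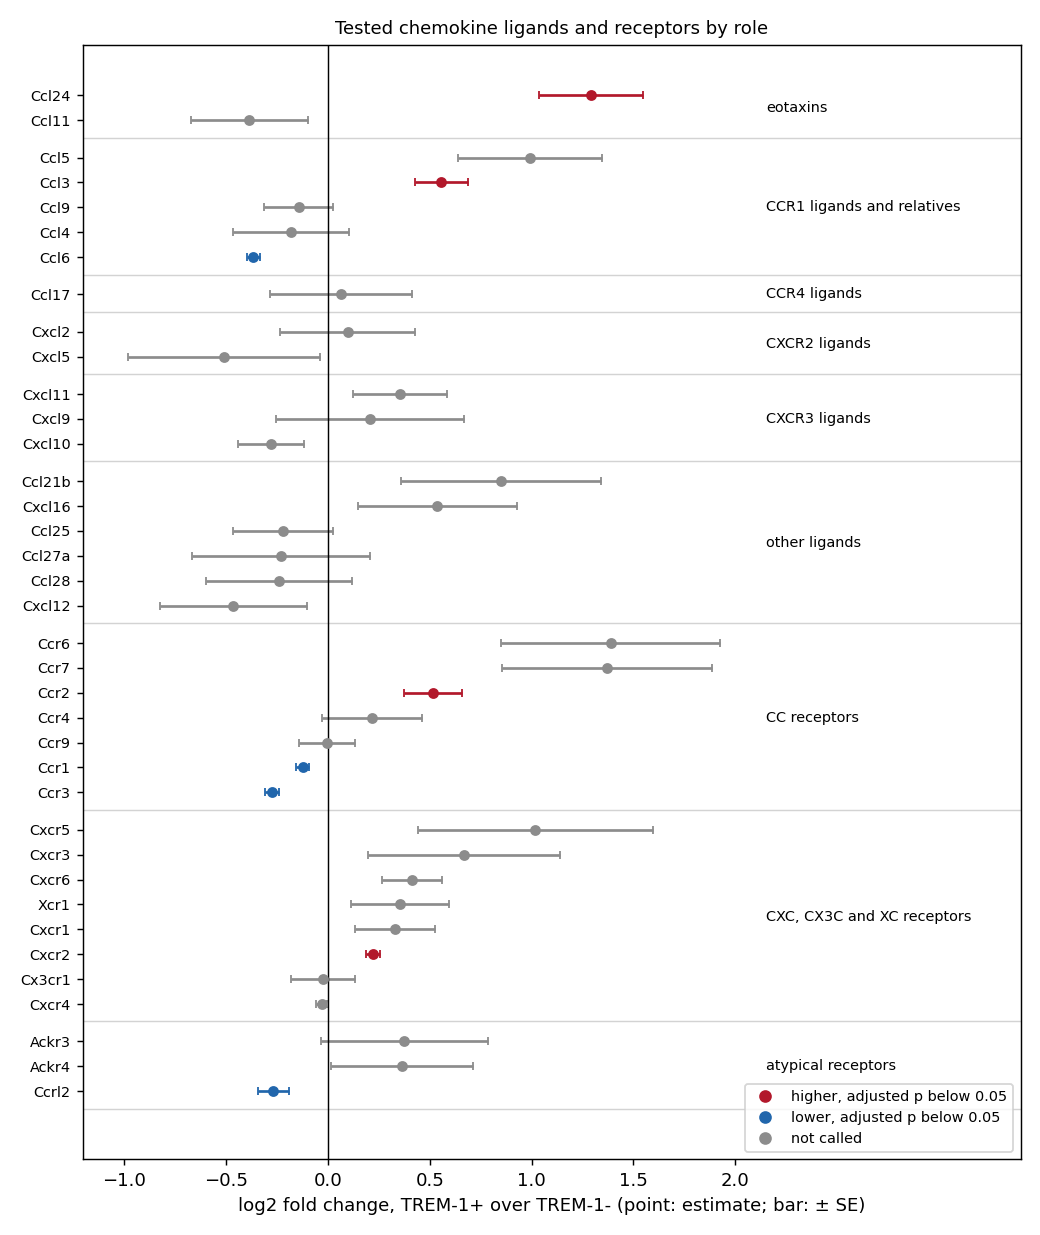
Log2 fold change of TREM-1+ over TREM-1- eosinophils (points, with bars of 1 SE) for 37 of the 38 tested members, grouped by role. Red marks the 4 members called higher, blue the 4 called lower and grey the 29 others, which were not called.

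Levels of different genes were compared per kilobase of the longest annotated coding transcript. On that scale Ccl6 stood first, with a mean of 2529 CPM per kilobase over both fractions. Cxcr4 followed at 731, Ccr3 at 275, Ccr1 at 143 and Cxcr2 at 117 CPM per kilobase. The next member, Ccrl2, lay at 13.7 CPM per kilobase and Ccl3 at 13.4, an order that their ranges over libraries do not separate. All other members were below 10 CPM per kilobase. In summed CPM, without regard to length, Ccl6 made 95.9 to 98.7% of all ligand counts in TREM-1+ libraries and 97.1 to 98.9% in TREM-1- libraries. Cxcr4, Ccr3, Cxcr2 and Ccr1 together made 95.3 to 98.3% of the receptor sum in TREM-1+ libraries and 96.0 to 98.4% in TREM-1- libraries. The sum over all 39 ligands averaged 3260 ± 555 CPM in TREM-1+, against 4169 ± 727 CPM in TREM-1- libraries, and that over all 23 receptors 2977 ± 364 and 3149 ± 403 CPM in the same order (SD, n = 6 each).

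**Figure D2:**
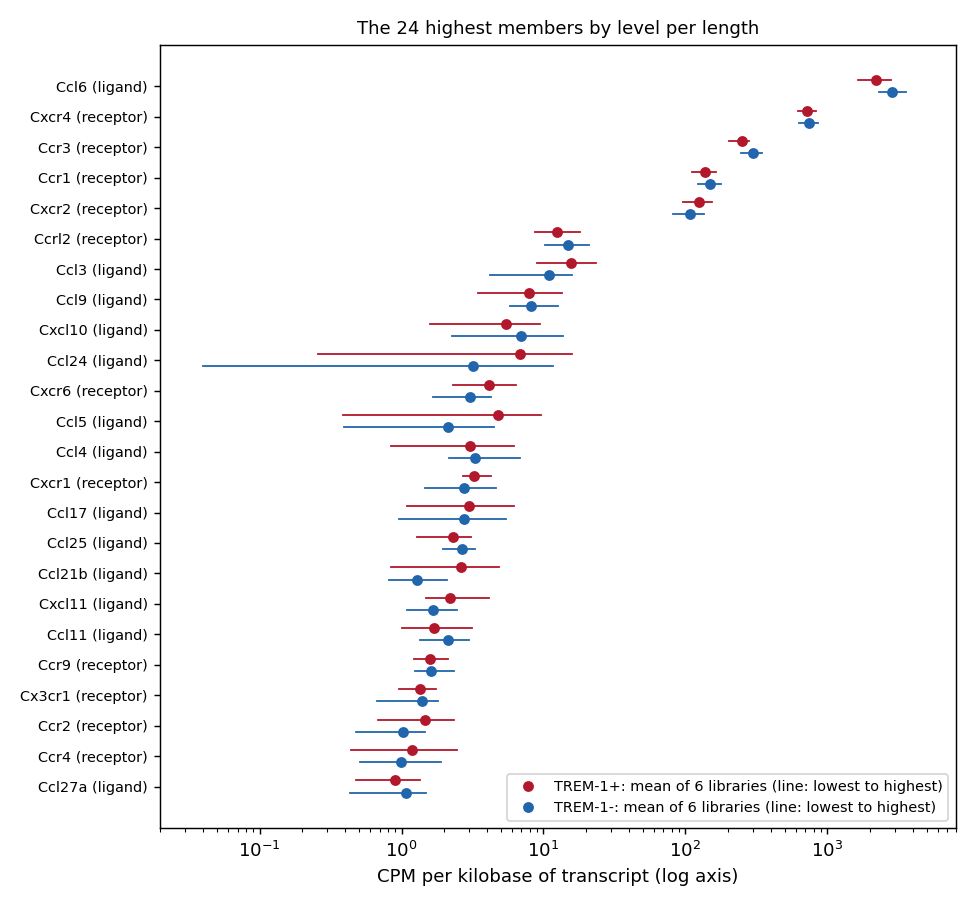
Level per length of the 24 highest members (points, mean of 6 libraries; lines, lowest to highest library), TREM-1+ in red above TREM-1- in blue, on a log axis. Ccl6, Cxcr4, Ccr3, Ccr1 and Cxcr2 lie above 100 CPM per kilobase in the mean, and Ccrl2 follows at 13.7.

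Among the ligands of CCR1 and their close relatives, which attract monocytes, T cells and granulocytes, the most abundant member fell and a much rarer one rose. Ccl6, which acts on CCR1, had 4060, 3555, 2902, 2383, 3134 and 3062 CPM in the TREM-1+ libraries of lavages 1 to 6, against 5153, 4879, 3803, 3327, 3566 and 3869 CPM in the TREM-1- libraries. Every TREM-1+ value was below that of its partner, although TREM-1+ cells of lavage 1 exceeded TREM-1- cells of lavages 3 to 6. Ccl6 fell by 0.37 ± 0.03 on the log2 scale (SE, edgeR adjusted p = 5.66e-10). Ccl3, a ligand of CCR1, had 18.1, 17.7, 6.92, 13.1, 8.09 and 8.53 CPM in TREM-1+ and 12.2, 10.7, 3.21, 11.8, 4.89 and 7.63 CPM in TREM-1- libraries. It rose 1.47-fold (log2 fold change 0.56 ± 0.13, adjusted p = 0.00361) and its TREM-1+ values were highest in lavages 1 and 2. The call was lost in lavages 3 to 6 alone (0.51, adjusted p = 0.159).

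The other 3 ligands of this group were not called. Ccl9, another CCR1 ligand, had 10.5, 11.2, 23.9, 28.7, 40.9 and 27.2 CPM in TREM-1+ and 17.8, 17.5, 20.7, 38.1, 27.9 and 26.4 CPM in TREM-1- libraries (log2 fold change -0.14 ± 0.17, adjusted p = 0.756). Its TREM-1+ value was lower in lavages 1, 2 and 4 and higher in lavages 3, 5 and 6. In lavages 1 and 2 alone Ccl9 was called lower (-0.69, adjusted p = 4.46e-05), and in lavages 3 to 6 alone its log2 fold change was 0.10 (adjusted p = 0.775). Whether these lavages differ in Ccl9 was not tested. Ccl5, which acts on CCR1 and CCR3, reached 5.13 CPM at most in TREM-1+ and 2.37 CPM at most in TREM-1- libraries (0.99 ± 0.35, adjusted p = 0.0756). It was called in lavages 3 to 6 alone (1.22, adjusted p = 0.0364) and by limma-voom (1.14, adjusted p = 0.0127), and DESeq2 gave it no adjusted p. Ccl4, a chemoattractant of T cells and monocytes, stayed between 0.559 and 4.11 CPM in TREM-1+ and between 1.42 and 4.54 CPM in TREM-1- libraries (-0.18 ± 0.28, adjusted p = 0.816).

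Ccl5, Ccl9, Ccl6, Ccl3 and Ccl4 follow each other as chemokine genes in this order on chromosome 11 of assembly GRCm38.p6. Ccl6, which fell, and Ccl3, which rose, are next to each other among the family's genes there. Their promoters are shown because these closely placed genes moved in opposite directions, as the 250 bases before each RefSeq start, 5′ to 3′ on the coding strand (GRCm38.p6, chr11:83593088-83593337, minus strand, for Ccl6 and chr11:83649379-83649628, minus strand, for Ccl3). These sequences carry none of the 6 motifs searched, listed with the receptor promoters further on, so no letters are capitals.
Ccl6: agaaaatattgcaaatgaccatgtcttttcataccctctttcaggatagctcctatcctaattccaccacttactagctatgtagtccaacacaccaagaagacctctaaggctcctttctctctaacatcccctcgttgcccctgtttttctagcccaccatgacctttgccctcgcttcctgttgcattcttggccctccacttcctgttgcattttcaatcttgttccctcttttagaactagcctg
Ccl3: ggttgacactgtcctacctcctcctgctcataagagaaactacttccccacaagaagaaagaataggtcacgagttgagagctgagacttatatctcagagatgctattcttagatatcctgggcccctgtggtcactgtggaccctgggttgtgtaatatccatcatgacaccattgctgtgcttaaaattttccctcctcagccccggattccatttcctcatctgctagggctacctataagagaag

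Of the eotaxins, the ligands of CCR3 that recruit eosinophils, Ccl24 was the member with the largest called change of the family. It had 0.821, 0.335, 15.6, 11.4, 20.6 and 4.75 CPM in TREM-1+ libraries of lavages 1 to 6, against 0.792, 0.0520, 2.83, 4.81, 15.0 and 1.39 CPM in TREM-1- libraries. The TREM-1+ value was higher in 6 of 6 pairs, barely so in lavage 1, and the lowest TREM-1- value rested on 1 count. Over all pairs it rose 2.45-fold (log2 fold change 1.29 ± 0.26, SE, edgeR adjusted p = 0.00172). Ccl24 was also called in lavages 3 to 6 alone (1.39, adjusted p = 0.00245), but not in lavages 1 and 2 alone (0.69, adjusted p = 0.739), where it was scarce. Ccl11, the other mouse eotaxin, averaged 1.85 ± 0.87 CPM in TREM-1+, against 2.32 ± 0.66 CPM in TREM-1- libraries (SD, n = 6 each) and was not called (-0.38 ± 0.29, adjusted p = 0.533). Ccl26 had no count in any library.

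**Figure D3:**
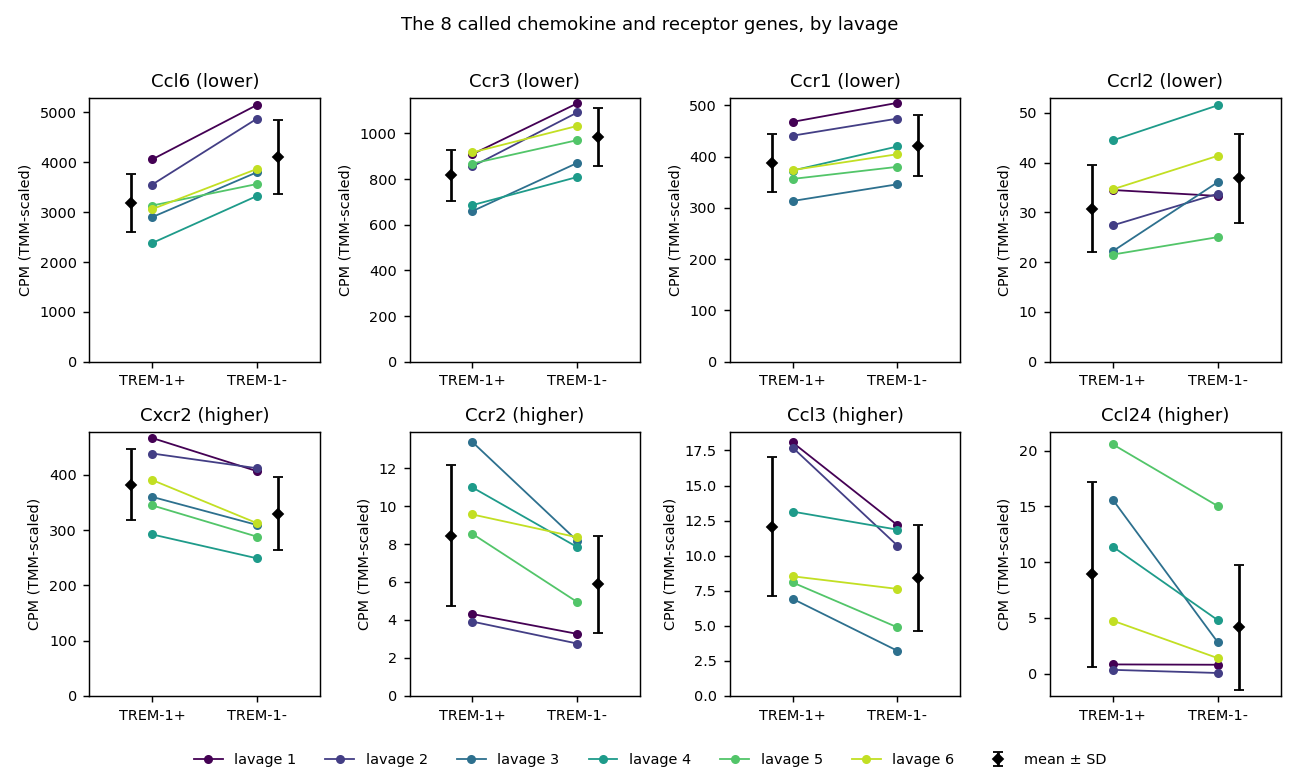
CPM of the 8 called members, TREM-1+ at the left and TREM-1- at the right of each panel, with a line for each lavage and diamonds for the mean ± SD (n = 6). Lines run upward to TREM-1- for Ccl6, Ccr3 and Ccr1 in every lavage, downward for Cxcr2, Ccr2, Ccl3 and Ccl24, and upward for Ccrl2 in 5 of 6.

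The ligands of CXCR2, CXCR3, CCR2, CCR4 and CCR8 were low. Of the 6 tested, 0 were called by edgeR or limma-voom, and 0 had an unadjusted edgeR p below 0.05. DESeq2 called 0 as well, but it gave no adjusted p for Cxcl2, Cxcl5, Cxcl9 and Ccl17 and so could not call them. Cxcl10, an interferon-induced ligand of CXCR3 that attracts activated T cells, was the only one of the 6 above 5 CPM in the mean. It had 7.80, 7.38, 7.26, 6.67, 2.17 and 12.8 CPM in TREM-1+ and 10.7, 7.90, 4.14, 11.9, 3.09 and 18.6 CPM in TREM-1- libraries, and was below its partner in 5 of 6 TREM-1+ libraries, lavage 3 being the exception. The log2 fold change of -0.28 ± 0.16 was not called (adjusted p = 0.370), but without lavage 3 it was (-0.48, adjusted p = 0.0209). Its exons overlap those of Art3 on the opposite strand, and the sources used here do not say whether counting kept strands apart. Cxcl11 averaged 3.46 ± 1.59 and 2.65 ± 0.91 CPM, and Cxcl9 0.891 ± 0.301 and 0.839 ± 0.421 CPM, in TREM-1+ and TREM-1- libraries (SD, n = 6 each, adjusted p = 0.447 and 0.877). C57BL/6 mice are known to carry a Cxcl11 allele that gives no functional protein.

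Of the neutrophil-attracting CXCR2 ligands, Cxcl2 averaged 1.51 ± 0.48 CPM in TREM-1+, against 1.42 ± 0.50 CPM in TREM-1- libraries (SD, n = 6 each, adjusted p = 0.927). Cxcl5 averaged 0.692 ± 0.321 and 1.07 ± 0.70 CPM (adjusted p = 0.644). Cxcl1 had no count in any library, and Cxcl3 and Cxcl15 did not pass the filter. Ccl17, which attracts CCR4+ T helper cells, averaged 1.54 ± 1.10 CPM in TREM-1+, against 1.42 ± 0.92 CPM in TREM-1- libraries (adjusted p = 0.955). The other CCR4 ligand, Ccl22, did not pass the filter and reached 0.407 CPM at most in TREM-1+ libraries and 1.71 CPM at most in TREM-1- libraries. None of the monocyte-attracting CCR2 ligands Ccl2, Ccl7 and Ccl12 passed the filter, nor did the CCR8 ligands Ccl1 and Ccl8. Of these 5, Ccl7 reached 1.85 CPM in a TREM-1+ library and 0.666 CPM at most in TREM-1- libraries, and Ccl2 1.37 and 1.25 CPM in the same order.

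Most of the 16 remaining ligands are known for homing in lymphoid organs, gut, skin or marrow. Of these 16, 6 were tested and 0 were called by edgeR or limma-voom. DESeq2 called 0 as well, but of the 6 it gave an adjusted p to Ccl25 alone. An unadjusted edgeR p below 0.05 was found in 0 of the 6. Their mean levels lay between 0.515 CPM, of Ccl21b in TREM-1- libraries, and 2.81 CPM, of Ccl25 in TREM-1- libraries. Ccl21b had the largest log2 fold change of these 6 (0.85 ± 0.49, adjusted p = 0.361). Its values are uncertain, since near-identical Ccl21 copies may share reads. Cxcl12, the ligand of CXCR4, averaged 1.24 ± 0.59 CPM in TREM-1+, against 1.63 ± 0.51 CPM in TREM-1- libraries (SD, n = 6 each, -0.46 ± 0.36, adjusted p = 0.556). Cxcl16, the ligand of CXCR6, averaged 1.43 ± 0.84 and 0.900 ± 0.320 CPM in the same order (0.54 ± 0.39, adjusted p = 0.513). Ccl25, the ligand of CCR9, averaged 2.44 ± 0.68 CPM in TREM-1+ libraries and was not called either (adjusted p = 0.722).

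In all, 24 members did not pass the filter. Of these, 7 had no count in any library: Cxcl1, Ccl19, Ccl21a, Ccl26, Cxcl13, Cxcl14 and Ackr1. A count of 0 allows up to 3 counts, which is 0.154 to 0.308 CPM in TREM-1+, against 0.148 to 0.198 CPM in TREM-1- libraries, for counting error only. A mean of at least 0.1 CPM in either fraction was reached by 9 others, Ccl2, Ccl7, Ccl8, Ccl22, Cxcl3, Cxcl15, Cxcl17, Xcl1 and Ccr8. The remaining 8 were Ccl1, Ccl12, Ccl20, Ccl21d, Ccl27b, Cx3cl1, Ccr10 and Ackr2, of which Cx3cl1 went highest, to 0.513 CPM in 1 library.

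Among CC receptors, the eosinophil receptor genes Ccr3 and Ccr1 fell slightly and the monocyte receptor gene Ccr2 rose. Of 10 members 8 were tested, 2 were lower and 1 higher. Ccr3, the eotaxin receptor, had 909, 856, 660, 686, 868 and 917 CPM in TREM-1+ libraries of lavages 1 to 6, against 1132, 1092, 871, 809, 971 and 1033 CPM in TREM-1- libraries. It fell in 6 of 6 pairs, by 0.27 ± 0.03 on the log2 scale (SE, edgeR adjusted p = 3.75e-07), and was called in lavages 1 and 2 alone (-0.31, adjusted p = 1.7e-12) and in lavages 3 to 6 alone (-0.25, adjusted p = 0.00012). With library totals in place of TMM factors the median of all genes became 0.13 and the value of Ccr3 -0.15 (adjusted p = 0.0245). The gene of its ligand Ccl24 rose, as given above.

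Ccr1, whose product binds Ccl6, Ccl9 and Ccl3, had 468, 441, 313, 373, 356 and 374 CPM in TREM-1+ and 505, 474, 346, 420, 380 and 404 CPM in TREM-1- libraries. Each TREM-1+ library was below its partner, while the ranges of the fractions overlapped. Ccr1 fell by 0.12 ± 0.03 on the log2 scale (adjusted p = 0.00863), but with library totals alone its value was 0.01 (adjusted p = 0.954), a change of sign. In lavages 1 and 2 alone it missed the threshold (-0.09, adjusted p = 0.246), as it did without lavages 3 and 4 (-0.11, adjusted p = 0.116).

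Ccr2, the receptor of Ccl2 and a marker of inflammatory monocytes, had 4.31, 3.91, 13.4, 11.0, 8.53 and 9.56 CPM in TREM-1+ libraries. Its TREM-1- partners had 3.27, 2.75, 8.16, 7.83, 4.94 and 8.35 CPM, and the TREM-1+ value was higher in 6 of 6 pairs. It rose 1.43-fold (log2 fold change 0.52 ± 0.14, adjusted p = 0.0166). The call was lost without lavage 3 (0.47, adjusted p = 0.0583) and without lavage 5 (0.46, adjusted p = 0.0630), and in lavages 3 to 6 alone (0.54, adjusted p = 0.0735). It was lost as well in lavages 1 and 2 alone (0.47, adjusted p = 0.380) and without lavages 3 and 4 (0.47, adjusted p = 0.135). Of the other 6 monocyte markers listed, 5 were tested, of which Fn1 was higher and Ly6c2 lower. Their summed level, most of it Ly6c2 and Csf1r, was 641 to 1233 CPM in TREM-1+, against 733 to 1328 CPM in TREM-1- libraries. Fn1 averaged 69.3 CPM in TREM-1+, against 25.9 CPM in TREM-1- libraries, and Ly6c2 540 and 667 CPM in the same order. The part of other cells in the Ccr2 values was not tested, and in bulk samples fewer cells of a type and less RNA per cell cannot be told apart.

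On chromosome 9 of GRCm38.p6, Ccr1, Ccr3 and Ccr2 follow each other in this order, with 1 other gene of the annotation between Ccr1 and Ccr3. The promoters of the 3 called members are shown because Ccr1 and Ccr3 fell while their neighbour Ccr2 rose. They are the 250 bases before each start, 5′ to 3′ on the coding strand, from RefSeq (GRCm38.p6, chr9:123968693-123968942, minus strand, for Ccr1, chr9:124021721-124021970, plus strand, for Ccr3 and chr9:124101933-124102182, plus strand, for Ccr2). Capitals mark matches to the motifs searched on both strands.
Ccr1: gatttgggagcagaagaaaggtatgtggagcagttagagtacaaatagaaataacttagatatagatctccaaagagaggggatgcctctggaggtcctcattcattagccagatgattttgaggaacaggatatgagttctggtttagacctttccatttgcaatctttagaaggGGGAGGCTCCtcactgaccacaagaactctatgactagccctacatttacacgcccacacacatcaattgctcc
Ccr3: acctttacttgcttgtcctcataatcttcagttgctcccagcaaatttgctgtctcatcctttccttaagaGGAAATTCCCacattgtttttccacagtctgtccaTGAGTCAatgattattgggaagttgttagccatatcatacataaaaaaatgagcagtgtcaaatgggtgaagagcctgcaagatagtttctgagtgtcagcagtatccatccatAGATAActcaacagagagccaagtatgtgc
Ccr2: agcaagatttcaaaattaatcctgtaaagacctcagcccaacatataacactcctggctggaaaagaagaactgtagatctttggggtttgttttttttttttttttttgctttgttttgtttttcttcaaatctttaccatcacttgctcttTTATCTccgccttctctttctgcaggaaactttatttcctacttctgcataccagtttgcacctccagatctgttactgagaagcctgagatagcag

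The motifs, with the share of all 32851 promoter windows of the same length that held each, were as follows. The TATA box TATAAA was found in 12.4% of windows, the GATA motif AGATAA in 9.99% and the AP-1 motif TGANTCA in 6.75%. The NF-kB motif, GGG and CC separated by 5 bases of any kind, was found in 45.8%. The STAT6 motif, TTC and GAA separated by 4 bases, was found in 5.85%, and the interferon-stimulated response element, GAAA repeated after 2 bases, in 2.98%. In the Ccr3 window stood an AGATAA 30 to 25 bases before the start and the AP-1 match TGAGTCA at 144 to 138 bases. Its NF-kB match, printed as GGAAATTCCC, was on the other strand at 179 to 170 bases. The Ccr2 window held a GATA match on the other strand, TTATCT, 97 to 92 bases before the start. In the Ccr1 window the NF-kB match GGGAGGCTCC lay 74 to 65 bases before the start. Matches are letters in a window and not measured binding. Windows were found for 47 of the 62 members and for 7 of the 8 called members, the exception being Ccl24.

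Ccr9, Ccr7, Ccr6 and Ccr4 were not called by edgeR. Ccr9, the gut-homing receptor, had 8.16, 6.37, 11.0, 9.34, 6.50 and 8.30 CPM in TREM-1+ and 7.12, 6.50, 7.89, 12.1, 8.09 and 8.35 CPM in TREM-1- libraries, and the 95% interval of its log2 fold change ran from -0.28 to 0.28. Exons of Slc6a20a lie over it on the opposite strand. Ccr7, which guides T cells and dendritic cells to lymph nodes, averaged 1.45 ± 1.62 CPM in TREM-1+, against 0.439 ± 0.334 CPM in TREM-1- libraries (SD, n = 6 each, 1.37 ± 0.52, adjusted p = 0.102). Ccr6, a receptor of lymphocytes for Ccl20, averaged 1.30 ± 1.24 and 0.480 ± 0.446 CPM in the same order (1.39 ± 0.54, adjusted p = 0.116). Limma-voom called both Ccr7 (1.51, adjusted p = 0.0153) and Ccr6 (1.38, adjusted p = 0.0432), and DESeq2 gave no adjusted p for either. Ccr4, found on T helper cells, averaged 3.33 ± 1.99 and 2.79 ± 1.52 CPM (adjusted p = 0.730).

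All 8 CXC, CX3C and XC receptors were tested, and Cxcr2 alone was called. Cxcr2, the receptor through which neutrophils follow Cxcl1 and Cxcl2, had 467, 439, 360, 292, 345 and 391 CPM in TREM-1+ libraries. The TREM-1- libraries had 407, 412, 309, 249, 288 and 313 CPM, each below its partner. It rose 1.16-fold (log2 fold change 0.22 ± 0.03, edgeR adjusted p = 1.84e-05), and was called in lavages 1 and 2 alone (0.16, adjusted p = 0.00351) and in lavages 3 to 6 alone (0.26, adjusted p = 7.56e-05). Cxcr1, its paralogue and neighbour on chromosome 1, averaged 4.73 ± 0.81 CPM in TREM-1+, against 3.99 ± 1.82 CPM in TREM-1- libraries (SD, n = 6 each, 0.33 ± 0.20, adjusted p = 0.382). Among the 11 other neutrophil markers 7 were tested, 6 of which were higher and 1, Retnlg, lower. Of the 6 higher, S100a9 averaged 97.52 CPM in TREM-1+, against 37.25 CPM in TREM-1- libraries. S100a8 averaged 8.72 and 1.70 CPM, and Ngp 46.8 and 25.4 CPM, in the same order. Retnlg averaged 1244 and 1603 CPM. The sum of the 11, most of it Retnlg, was 1039 to 1880 CPM in TREM-1+, against 1296 to 1904 CPM in TREM-1- libraries. Elane had no count and Mpo none in 10 of 12 libraries. The part of neutrophils in the Cxcr2 values was not tested.

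Cxcr4, the receptor of Cxcl12 that retains leukocytes in marrow and tissue, was the most abundant receptor per length and did not pass the test. It had 1512, 1457, 1123, 1129, 1189 and 1426 CPM in TREM-1+ and 1551, 1537, 1148, 1150, 1215 and 1405 CPM in TREM-1- libraries. TREM-1+ was lower in 5 of 6 pairs by small amounts, and the 95% interval of the log2 fold change ran from -0.09 to 0.03 (adjusted p = 0.652), with a value of 0.10 under library totals alone. Cxcr6, the receptor of Cxcl16 on lymphocytes, had 4.36, 4.64, 10.9, 12.2, 6.88 and 8.41 CPM in TREM-1+ and 3.17, 4.16, 8.11, 6.85, 6.13 and 6.36 CPM in TREM-1- libraries. Although higher in 6 of 6 pairs, it missed the threshold (0.41 ± 0.15, adjusted p = 0.0790), and it was called with library totals alone (0.54, adjusted p = 0.0184). Cx3cr1, the fractalkine receptor of monocytes, had 4.41, 4.3, 7.87, 7.60, 7.90 and 4.46 CPM in TREM-1+ and 3.02, 5.09, 7.62, 8.16, 7.54 and 6.05 CPM in TREM-1- libraries, with a 95% interval of -0.35 to 0.30. Cxcr3, the chemokine receptor of T cells for Cxcl9 and Cxcl10, averaged 1.23 ± 0.95 and 0.864 ± 0.808 CPM. Cxcr5, a chemokine receptor of B cells, averaged 0.902 ± 0.715 and 0.454 ± 0.520 CPM. Xcr1, a marker of cross-presenting dendritic cells, averaged 2.87 ± 0.86 and 2.24 ± 0.65 CPM. Adjusted p-values of these 3 were 0.494, 0.351 and 0.469.

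Ccrl2, which binds the chemoattractant chemerin and is grouped with the atypical receptors, had 34.5, 27.4, 22.2, 44.5, 21.5 and 34.6 CPM in TREM-1+ libraries. In TREM-1- libraries it had 33.3, 33.7, 36.0, 51.5, 25.0 and 41.3 CPM, so that TREM-1+ was lower in 5 of 6 pairs and slightly higher in lavage 1. It fell by 0.27 ± 0.08 on the log2 scale (adjusted p = 0.0216). The call was lost without lavage 2 (adjusted p = 0.0633), lavage 3 (-0.19, adjusted p = 0.124), lavage 4 (adjusted p = 0.0561) or lavage 6 (adjusted p = 0.0694), and with library totals alone (-0.14, adjusted p = 0.303). It was also lost in lavages 1 and 2 alone (-0.10, adjusted p = 0.677) and without lavages 3 and 4 (-0.18, adjusted p = 0.250). The scavengers Ackr3 and Ackr4 averaged 1.14 ± 0.46 and 1.43 ± 0.15 CPM in TREM-1+ libraries, and 0.898 ± 0.486 and 1.11 ± 0.17 CPM in TREM-1- libraries (SD, n = 6 each, adjusted p = 0.713 and 0.656). Ackr1 had no count, and Ackr2 did not pass the filter.

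The family's levels also varied from lavage to lavage. In 12 of the 38 tested members lavages 1 and 2 lay below every one of lavages 3 to 6 in both fractions, which held for 8.73% of all tested genes. Among these were Ccl24, Ccl5, Ccl9, Ccr2, Ccr4, Ccr6, Ccr7, Cx3cr1, Cxcr3, Cxcr5 and Cxcr6. The reverse held for Ccl6, Ccr1, Cxcr2 and Cxcr4, 10.5% of the tested members and 11.4% of all tested genes. Ccl24, for instance, averaged 0.578 CPM in TREM-1+, against 0.422 CPM in TREM-1- libraries of lavages 1 and 2, and 13.1 CPM in TREM-1+, against 6.02 CPM in TREM-1- libraries of lavages 3 to 6.

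Markers of lymphocytes, and some of macrophages and monocytes, were likewise lower in lavages 1 and 2. The 10 T and innate lymphoid markers outside the family summed to 12.9 to 15.3 CPM in TREM-1+, against 11.1 to 12.4 CPM in TREM-1- libraries of lavages 1 and 2. In lavages 3 to 6 they summed to 61.8 to 132.6 CPM in TREM-1+, against 36.7 to 69.8 CPM in TREM-1- libraries. They were higher in TREM-1+ in 6 of 6 pairs, and 7 of the 10, Cd3e among them, were called higher. Of 6 natural killer cell markers Eomes and Gzma were tested and not called (adjusted p = 0.110 and 0.198), and all 6 together summed to 0.975 to 1.68 CPM in TREM-1+, against 0.208 to 0.693 CPM in TREM-1- libraries of lavages 1 and 2. In lavages 3 to 6 the sums were 9.16 to 22.4 CPM and 5.81 to 12.9 CPM in the same order. Of 16 macrophage markers 10 were tested, 4 higher and 1 lower, and their sum was 1923 to 2436 CPM in TREM-1+, against 1920 to 2338 CPM in TREM-1- libraries. Most of that sum was Adgre1 and Itgax, which eosinophils also express, while Marco, Fabp4 and C1qa did not pass the filter. Cd68, Ctsk, Fabp5 and Pparg were the higher markers and Adgre1 the lower one. Chil3 had 32.3, 25.9, 496, 485, 573 and 218 CPM in TREM-1+ libraries of lavages 1 to 6. Its TREM-1- partners had 18.3, 2.86, 128, 212, 464 and 79.5 CPM, and it was not called (edgeR adjusted p = 0.0877). Mrc1, a macrophage receptor, had a mean of 12.2 CPM in TREM-1+, against 5.75 CPM in TREM-1- libraries (adjusted p = 0.0829). Like Chil3, the markers Mrc1, Ctsk and Fn1 were lower in lavages 1 and 2 than in lavages 3 to 6 in both fractions. Adgre1 and Pparg were higher in lavages 1 and 2. The 7 dendritic cell markers outside the family summed to 89.4 to 113.3 CPM in TREM-1+, against 61.8 to 78.0 CPM in TREM-1- libraries, most of it Itgae. This sum was higher in TREM-1+ in 6 of 6 pairs. Of the 4 tested, Itgae alone was called, and it was higher (edgeR adjusted p = 6.53e-09). The part of lymphocytes, monocytes, macrophages and dendritic cells in Ccl24, Ccl5, Xcr1 and the lymphoid receptors was not tested.

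**Figure D4:**
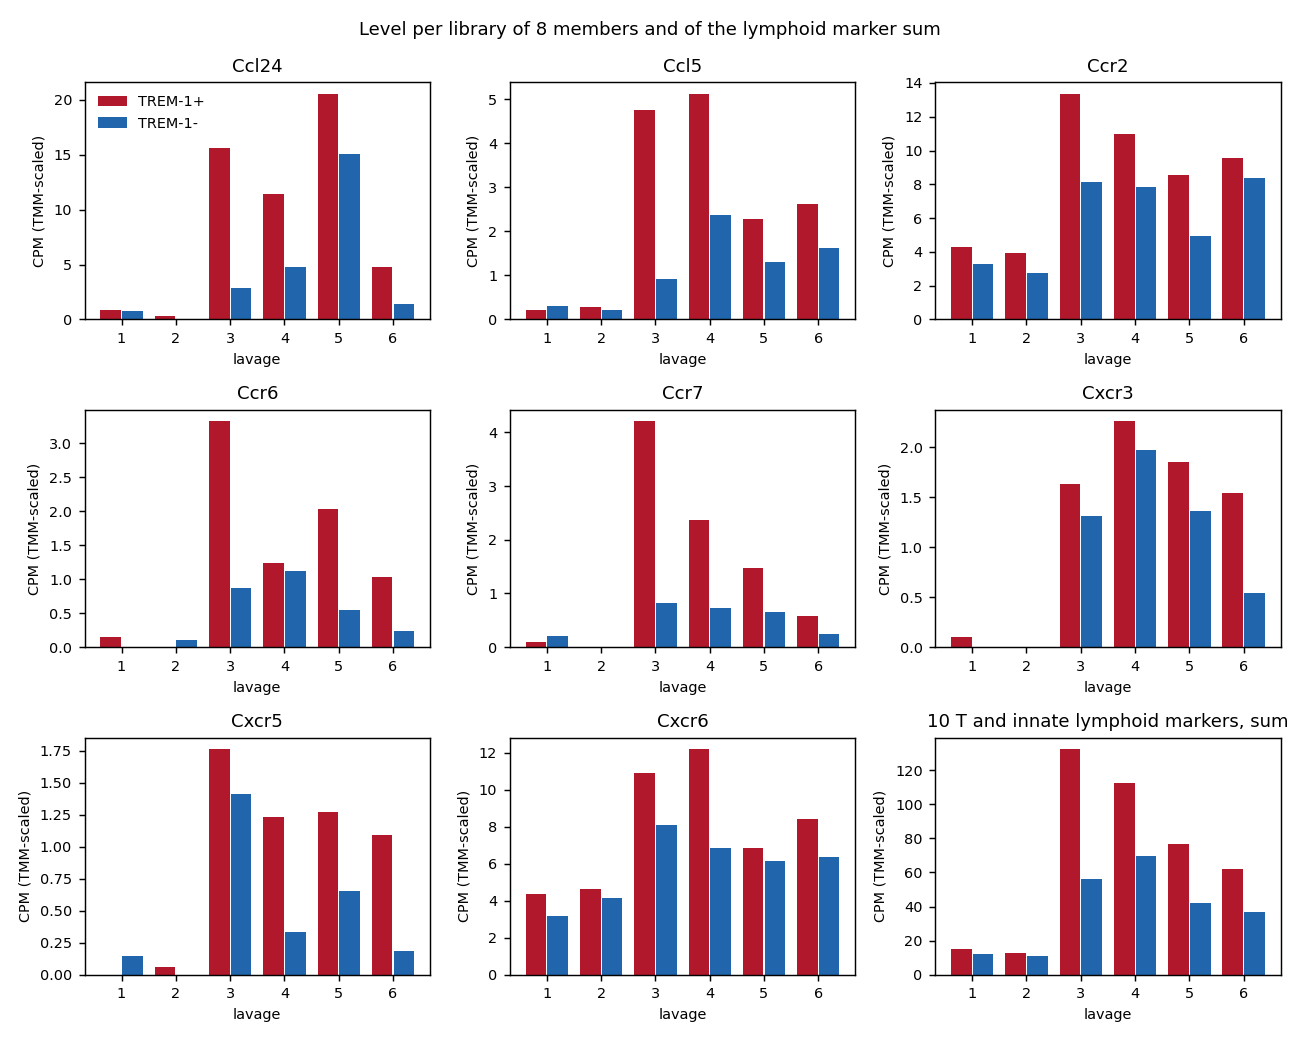
CPM of Ccl24, Ccl5, Ccr2, Ccr6, Ccr7, Cxcr3, Cxcr5 and Cxcr6, and the summed CPM of the 10 T and innate lymphoid markers outside the family, in each lavage, TREM-1+ in red at the left of TREM-1- in blue. The 8 members were chosen after their values were seen. Bars of lavages 1 and 2 are below those of lavages 3 to 6 in each panel and fraction. For the members this follows from the choice, since all are among the 12 with that pattern. Ccl9, Ccr4 and Cx3cr1, with log2 fold changes of -0.14, 0.21 and -0.02, also have the pattern and are not drawn.

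Fitted alone, lavages 1 and 2 gave 5 called members, Ccl3, Ccl6, Ccl9, Ccr3 and Cxcr2, where 8.45% of all genes tested there were called. Lavages 3 to 6 alone gave 8, among them Ccl24, Ccl5, Ccl6, Ccr1, Ccr3, Ccrl2 and Cxcr2, beside 6.26% of all genes tested there. Ccl6, Ccr3 and Cxcr2 were called in both fits and in the same direction. Libraries of lavages 1 and 2 were the closest of all, and the labels do not say whether they are separate pools of mice. The p-values of that fit may therefore describe technical spread alone. The loss of other calls in fits of fewer libraries does not show that the lavages differ.

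Of the called genes that act behind chemokine receptors, most were lower. In the list of 31 genes of receptor signalling and directed movement, all were tested, 14 were lower and 1 was higher, with a median log2 fold change of -0.10. Among the lower genes of smallest p were the Src-family kinase Lyn (-0.29 ± 0.03, adjusted p = 1.09e-07) and the actin regulator Coro1a (-0.27 ± 0.03, adjusted p = 3.31e-07). Fgr, another Src-family kinase, was the one higher gene (0.11 ± 0.03, adjusted p = 0.0387), a call lost without lavage 1, 3, 4, 5 or 6 (adjusted p = 0.0622 to 0.173). Of 16 receptors for other chemoattractants 12 were tested, 7 were lower and 1 higher, with a median of -0.25. The complement receptors C5ar1 (-0.48 ± 0.04, adjusted p = 1.21e-10) and C3ar1 (-0.27 ± 0.03, adjusted p = 7.17e-07) and the platelet-activating factor receptor Ptafr (-0.23 ± 0.03, adjusted p = 8.54e-06) were the lower genes of smallest p. Ptafr was not called with library totals alone (-0.10, adjusted p = 0.123). S1pr1, a sphingosine-1-phosphate receptor, rose (0.78 ± 0.15, adjusted p = 0.000383), with the call lost in lavages 1 and 2 alone (0.48, adjusted p = 0.230). Of 7 chemokine-related genes outside the rule, such as Pf4 and Mif, 5 were tested and 0 were called by edgeR, DESeq2 or limma-voom, while 1 had an unadjusted edgeR p below 0.05. These medians stand beside 0.0043 over all tested genes, of which 9.82% were called. With library totals alone the median of all genes became 0.13, and the lists were not recounted under that setting.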

How the data were processed

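Total RNA of the 6 TREM-1+ and 6 TREM-1- samples was depleted of ribosomal RNA and sequenced from strand-specific libraries with paired 100 bp reads, per the labels' protocols. The deposited table holds estimated counts per gene, which are whole numbers and were rounded with no effect. GRCm39, kallisto 0.45.0, edgeR 3.42.4 and R 4.3.0 are listed, without their roles, in the submitters' processing notes. The sources used here give neither annotation nor strand setting, which leaves overlapping and near-identical genes uncertain. In GENCODE vM21, exons of other genes on the opposite strand overlap Ackr4, Ccl25, Ccl27a, Cx3cr1, Cxcl11, Cxcl16 and Cxcr5, besides Cxcl10 and Ccr9. The authors' deposited log2 CPM table (17934 genes) was recomputed from the counts to within 5e-09 and used for nothing else. Unused sample columns numbered 0.

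Counts were fitted with edgeR 4.0.16 in R 4.3.3 over all 18302 genes that passed filterByExpr (minimum count 10, minimum total 15), with TMM factors, robust quasi-likelihood F tests, the lavage as a block and Benjamini-Hochberg adjustment at 0.05. The SE comes from the F statistic. The block follows the series' design text, which pairs the fractions by lavage. Within pairs, deviations from the group means correlated at 0.127 to 0.502. The best correlation with a library of another lavage was 0.069 to 0.491, and in lavage 3 it exceeded that with the partner (0.148 against 0.127). The edgeR fit was tested on simulated data. Members with an adjusted p below 0.05, or a mean of at least 5 CPM in either fraction, are given by library. From the lists outside the family, the 3 called genes of smallest p in each direction are named, and 2 genes that entered the fits and counts are not reported here. Alternatives were limma 3.58.1 (voom), DESeq2 1.42.0, other scaling, no filter and left-out lavages. Lengths came from GENCODE vM21, promoters and gene order from RefSeq GRCm38.p6, which is not the authors' build. Members and lists were chosen with earlier results of these data known.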

Additional observations from a re-analysis of the deposited data

Results flagged for a closer look

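Within each fraction, the highest and lowest library of each of the 14 members given by library were compared with the rest of the group by Dixon's test, which chance alone passes in about 1 in 20 groups. Of 28 such groups 2 held a library that stood apart. Ccl24 was at 15.0 CPM in the TREM-1- library of lavage 5, where the other TREM-1- libraries had 0.0520 to 4.81 CPM. Ccr9 was at 12.1 CPM in the TREM-1- library of lavage 4, where the others had 6.50 to 8.35 CPM.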

How the results depend on the processing

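Without the lavage block, that is with no replicate block, edgeR called 83 genes in place of 1797 and 0 members in place of 8, with 3 members at an unadjusted p below 0.05. DESeq2 called 8 members and limma-voom 12, of 38 tested, beside 1787 and 1888 of all 18302 genes. The same 8 were among them in both, and Ccl5, Ccr6 and Ccr7 were among those added by limma-voom. DESeq2 gave no adjusted p for Ccl5, Ccr6 and Ccr7. With library totals alone 9 members were called, 7 higher and 2 lower, in place of 4 and 4, and over all genes 1880 higher and 376 lower in place of 568 and 1229. In lavages 1 and 2 alone 5 of 32 members tested and 1567 of 18551 genes were called. In lavages 3 to 6 alone these were 8 of 39 members and 1168 of 18651 genes. Without lavages 3 and 4 they were 5 of 34 members and 1291 of 18319 genes. Leaving out 1 lavage at a time gave 7 to 10 members and 1421 to 1588 genes. With no filter on low counts the same 8 members were called, beside 1930 genes. The same 8 were called, beside 1509 genes, with lavages 1 and 2 summed as 1 lavage, which was chosen after seeing the data. Ccl6, Ccr3 and Cxcr2 were called under every alternative run except the fit with no block. Among the 14 members given by library, signs turned in 5 and other members of low level also changed sign under some settings. Library totals alone gave log2 fold changes of 0.01 for Ccr1, 0.12 for Ccr9, 0.10 for Cx3cr1 and 0.10 for Cxcr4. Lavages 3 to 6 alone gave 0.10 for Ccl9, and lavages 1 and 2 alone 0.11 for Ccr9 and 0.16 for Cx3cr1. Limma-voom gave 0.01 for Ccr9, and leaving out 1 lavage at a time gave -0.10 to 0.07 for Ccr9 and -0.12 to 0.06 for Cx3cr1. The cause was not tested. Members under about 1 CPM rest on few counts, and small differences there were not detectable at this depth.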
